A study of Homo sapiens with 15 samples.

Results

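The fatty acid synthesis and desaturation genes described here are 10 of the 21493 genes counted in each of 15 RNA-Seq libraries of NCI-H295R cells. They were taken by name (ACLY, ACSS2, ACACA, FASN, ELOVL5, ELOVL6, SCD, FADS1, FADS2 and SREBF1) and not by their values, and all 10 passed the filter on low counts in both comparisons. SCD was the member that differed most, with 2.35-fold less RNA in cells given constitutively active NFATC4 than in mock cells. Within the libraries labelled control and NFATC4-KO, it differed 2.90-fold between groups of libraries that do not follow the knockout label.

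Cells make fatty acids in the cytosol from acetyl-CoA, which ACLY (ATP citrate lyase) cuts from citrate and ACSS2 (acyl-CoA synthetase short-chain family member 2) makes from acetate. ACACA (acetyl-CoA carboxylase alpha) turns acetyl-CoA into malonyl-CoA, FASN (fatty acid synthase) builds palmitate from both, ELOVL5 and ELOVL6 lengthen the chain, SCD (stearoyl-CoA desaturase) places a double bond at the delta-9 position, and FADS1 and FADS2 are the delta-5 and delta-6 desaturases of polyunsaturated fatty acids. SREBF1 encodes SREBP-1, a transcription factor that is cut free of the membrane when sterols are low and raises most of these enzymes, and adrenocortical cells store part of their cholesterol as esters of such fatty acids for steroid synthesis.

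NCI-H295R is a human adrenocortical carcinoma line. For the overexpression experiment, wild-type cells were transfected with a pcDNA3.T7 plasmid carrying NFATC4 that lacks its N-terminal domain and is therefore always active (ΔNFATC4, 3 libraries), or with the empty plasmid (mock, 4 libraries), and RNA was taken 3 days later. The share of cells that took up a plasmid is not given in the sources used here. For the knockout, cells received Cas9 and a pair of guide RNAs against NFATC4 and were grown from single cells into clones (NFATC4-KO, 4 libraries, numbered 1, 2, 3 and 5), and the 4 control libraries are of cells that were given empty plasmids alongside. The labels list no treatment for these 8 libraries. Which clone each NFATC4-KO library came from is not given in the sources used here, nor whether the libraries of a group came from separate cultures, so the tests below weigh differences against a library-to-library spread that may be technical.

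Total counts ranged from 18.8 to 28.2 M per library. All 10 adrenocortical marker genes (NR5A1, STAR, CYP11A1 and others) were above 1 CPM on average, and summed fibroblast, immune, endothelial and adrenal medulla markers stayed at or below 13.6 CPM. CPM here is a gene's count relative to the library total, which was scaled by TMM over all 15 libraries. NFATC4 itself was at 330, 359 and 342 CPM in ΔNFATC4, where reads from the plasmid can count toward the gene, and at 87.6 to 106 CPM in mock. In the libraries labelled NFATC4-KO it was at 92.7, 85.4, 57.6 and 53.6 CPM (replicates 1, 2, 3 and 5), against 114, 110, 44.8 and 54.0 CPM in control replicates 1 to 4, and over all 8 libraries it was not called between these labels (log2 difference −0.16, SE 0.34, edgeR quasi-likelihood adjusted p = 0.968). An edit can leave RNA counts as they were, so this does not check the knockout. The 8 libraries instead fell into 2 sets, control 1 and 2 with NFATC4-KO 1 and 2 (the first set) and control 3 and 4 with NFATC4-KO 3 and 5 (the second set). Between 2 libraries of the same label, the chi-square of counts per degree of freedom was 2.25 to 7.49 within a set and 46.2 to 64.3 across sets. Whether the sets are clones, batches or exchanged labels is not given in the sources used here and was not tested, and NFATC4-KO below means the libraries labelled so. Within the first set, NFATC4 was lower in NFATC4-KO (log2 difference −0.33, SE 0.054, edgeR adjusted p = 0.000467), and within the second it was at 0.17 (SE 0.100, adjusted p = 0.287). The sets were recognised from expression in these data, so differences between them are given as descriptions, and the members are compared between the labels over all 8 libraries and within each set.

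On GRCh38, SCD lies at chr10:100347233-100364826 on the plus strand. On chromosome 11, FADS1 (chr11:61799627-61829318, minus) and FADS2 (chr11:61792980-61867354, plus) overlap on opposite strands. Their annotated exons share 490 bases, which is 4.79% of the exonic bases of FADS1 and 4.64% of those of FADS2. The exons of SREBF1 (chr17:17810399-17837002, minus) share 556 bases with RAI1 on the other strand, 6.75% of its exonic bases. The libraries were stranded, but the strand setting of the counting is not given in the sources used here, so values of FADS1, FADS2 and SREBF1 are uncertain to that extent. The other members are ACLY (chr17:41866917-41930542, minus), ACSS2 (chr20:34872146-34927962, plus), ACACA (chr17:37084992-37406836, minus), FASN (chr17:82078338-82098294, minus), ELOVL5 (chr6:53267398-53349179, minus) and ELOVL6 (chr4:110045846-110199199, minus).

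Since an NFAT factor was expressed, the 250 bases before the start of the MANE transcript are shown for the called members whose window the RefSeq table (GRCh38.p14) holds, and for ELOVL6, the member that ran opposite to the others between the library sets. They are chr10:100346983-100347232 (plus) for SCD, chr11:61817004-61817253 (minus) for FADS1, chr6:53348951-53349200 (minus) for ELOVL5, chr17:17836987-17837236 (minus) for SREBF1 and chr4:110198616-110198865 (minus) for ELOVL6, each printed 5′ to 3′ on the strand of the gene. Capitals mark the NFAT core GGAAA or its other strand TTTCC, and the CCAAT box or its other strand ATTGG.
SCD: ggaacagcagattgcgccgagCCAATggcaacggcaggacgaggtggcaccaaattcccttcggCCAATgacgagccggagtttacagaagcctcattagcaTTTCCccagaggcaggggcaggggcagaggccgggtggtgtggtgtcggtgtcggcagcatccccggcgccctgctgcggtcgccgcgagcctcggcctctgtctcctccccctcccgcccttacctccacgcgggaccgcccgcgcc
FADS1: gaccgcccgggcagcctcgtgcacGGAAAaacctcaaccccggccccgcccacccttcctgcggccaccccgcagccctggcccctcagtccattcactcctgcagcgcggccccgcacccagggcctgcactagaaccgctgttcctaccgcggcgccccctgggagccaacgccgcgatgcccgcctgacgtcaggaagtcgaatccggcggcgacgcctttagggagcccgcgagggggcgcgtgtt
ELOVL5: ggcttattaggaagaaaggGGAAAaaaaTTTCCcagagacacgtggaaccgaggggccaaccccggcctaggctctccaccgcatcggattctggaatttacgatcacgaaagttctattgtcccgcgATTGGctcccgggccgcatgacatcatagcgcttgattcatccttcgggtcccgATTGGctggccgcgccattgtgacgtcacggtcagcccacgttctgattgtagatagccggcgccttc
SREBF1: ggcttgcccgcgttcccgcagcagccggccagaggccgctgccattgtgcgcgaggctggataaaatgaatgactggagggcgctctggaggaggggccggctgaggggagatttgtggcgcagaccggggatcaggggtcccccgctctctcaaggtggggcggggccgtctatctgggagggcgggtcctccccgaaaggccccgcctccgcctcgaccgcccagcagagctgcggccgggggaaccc
ELOVL6: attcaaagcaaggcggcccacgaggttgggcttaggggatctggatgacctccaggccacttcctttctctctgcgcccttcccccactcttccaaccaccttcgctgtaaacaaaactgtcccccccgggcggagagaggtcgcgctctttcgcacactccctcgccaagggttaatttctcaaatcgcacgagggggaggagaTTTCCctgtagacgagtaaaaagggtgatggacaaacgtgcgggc

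The SCD window held 1 NFAT core, its first base at −148 from the start, and 2 CCAAT boxes. The windows of FADS1 and ELOVL6 held 1 NFAT core each, at −226 and −45, that of ELOVL5 held 2 NFAT cores and 2 CCAAT boxes, and that of SREBF1 held neither. ATTGG and GGAAA can share bases, which they did not do in these windows. The sterol regulatory element TCACNCCAC, searched on both strands, matched none of the 5. Of 35116 windows of this length in the table, 55.6% held an NFAT core, 32% a CCAAT box and 0.883% the sterol element, so an NFAT core is a common match of 5 letters, and these matches describe the letters and not binding. Windows were found for 9 of the 10 members, and those of FADS2 lie at other starts than its MANE transcript.

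Constitutively active NFATC4 was compared with mock to see which genes follow the factor. Of the 10 members, 5 were lower in ΔNFATC4 (SCD, FADS2, FADS1, ELOVL5 and SREBF1) and 0 were higher, while across the 14094 genes tested 6.10% were called lower and 7.69% higher (edgeR quasi-likelihood test, Benjamini-Hochberg adjusted p under 0.05, these groups alone). The 3 desaturases had the lowest log2 fold changes, at −1.23 for SCD, −0.51 for FADS2 and −0.47 for FADS1. All 10 log2 fold changes were negative, with a median of −0.24, and the median of all genes was −0.00269. In 7 of the 10 every ΔNFATC4 library lay below every mock library, which held for 11.9% of all genes. In these bulk libraries, fewer cells that express a gene and less RNA per cell cannot be told apart.

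SCD, the delta-9 desaturase that makes oleate and palmitoleate, was at 624, 716, 685 and 716 CPM in the mock libraries and at 292, 293 and 289 CPM in the ΔNFATC4 libraries. The ΔNFATC4 values lay close together and far below the lowest mock value. Its mean fell from 685 ± 43.6 (SD, n = 4) to 291 ± 2.16 CPM (SD, n = 3), a log2 fold change of −1.23 (SE 0.060, edgeR quasi-likelihood adjusted p = 1.71e-11). It ranked 15 from the lowest of the 14094 log2 fold changes, and 0.149% of the genes tested were called lower by at least 2-fold. SCD made up 25.6% to 27.1% of the summed CPM of the 10 members in mock and 15.7% to 16.5% in ΔNFATC4.

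FADS2, the delta-6 desaturase, was at 739, 775, 809 and 808 CPM in mock and at 548, 569 and 532 CPM in ΔNFATC4. Its log2 fold change was −0.51 (SE 0.056, edgeR adjusted p = 2.37e-06), with no overlap between groups. FADS1, the delta-5 desaturase, was at 168, 183, 181 and 183 CPM in mock and at 124, 136 and 126 CPM in ΔNFATC4. It fell by 0.47 on the log2 scale (SE 0.059, edgeR adjusted p = 1.17e-05), and again every ΔNFATC4 library was below every mock library. The falls came to 1.42-fold for FADS2 and 1.39-fold for FADS1, beside 2.35-fold for SCD.

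Of the elongases, ELOVL5, which lengthens polyunsaturated chains, was called and ELOVL6, which takes palmitate to stearate, was not. ELOVL5 was at 169, 180, 162 and 174 CPM in mock and at 140, 145 and 142 CPM in ΔNFATC4, with a log2 fold change of −0.27 (SE 0.058, edgeR adjusted p = 0.00335). ELOVL6 was at 19.7, 18.8, 19.0 and 20.1 CPM in mock and at 17.7, 18.2 and 18.1 CPM in ΔNFATC4. Its groups did not overlap, but the difference of −0.11 (SE 0.078) did not pass the test (adjusted p = 0.429).

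The enzymes that make palmitate did not pass the test in this comparison. FASN was at 158, 213, 243 and 250 CPM in mock and at 155, 180 and 161 CPM in ΔNFATC4, so that mock replicate 1 lay among the ΔNFATC4 libraries (log2 fold change −0.38, SE 0.138, adjusted p = 0.103). ACACA was at 68.8, 79.7, 81.7 and 81.7 CPM in mock and at 64.3, 70.3 and 69.3 CPM in ΔNFATC4, again with mock replicate 1 inside the range of the other group (−0.20, SE 0.070, adjusted p = 0.0674). Mock replicate 1 had the highest share of mitochondrial (13.1%) and ribosomal protein counts (3.19%) of the 15 libraries, whose part in these values was not tested. Without it, FASN was called at −0.51 (SE 0.063, adjusted p = 2.12e-06) and ACACA at −0.25 (SE 0.060, adjusted p = 0.00351), which makes 7 of 10 members lower. Calls over all genes also grew in that fit, from 860 to 1219 lower and from 1084 to 1341 higher.

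For the supply of acetyl-CoA, ACLY was at 191, 201, 202 and 219 CPM in mock and at 181, 191 and 191 CPM in ΔNFATC4 (log2 fold change −0.11, SE 0.059, adjusted p = 0.24). ACSS2 was at 43.5, 41.9, 44.6 and 49.2 CPM in mock and at 41.7, 40.1 and 38.0 CPM in ΔNFATC4 (−0.16, SE 0.072, adjusted p = 0.149). In both the groups touched without overlapping, and neither difference passed. SREBF1, the regulator, was at 218, 234, 252 and 243 CPM in mock and at 201, 221 and 188 CPM in ΔNFATC4, with ΔNFATC4 replicate 2 above mock replicate 1. It was called lower at −0.21 (SE 0.065, edgeR adjusted p = 0.0306), the weakest of the 5 calls. The call of SREBF1 was lost without ΔNFATC4 replicate 1 (adjusted p = 0.122) or 3 (0.214), without mock replicate 3 (0.105) or 4 (0.0785), and with total counts in place of TMM (0.0692).

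**Figure D1:**
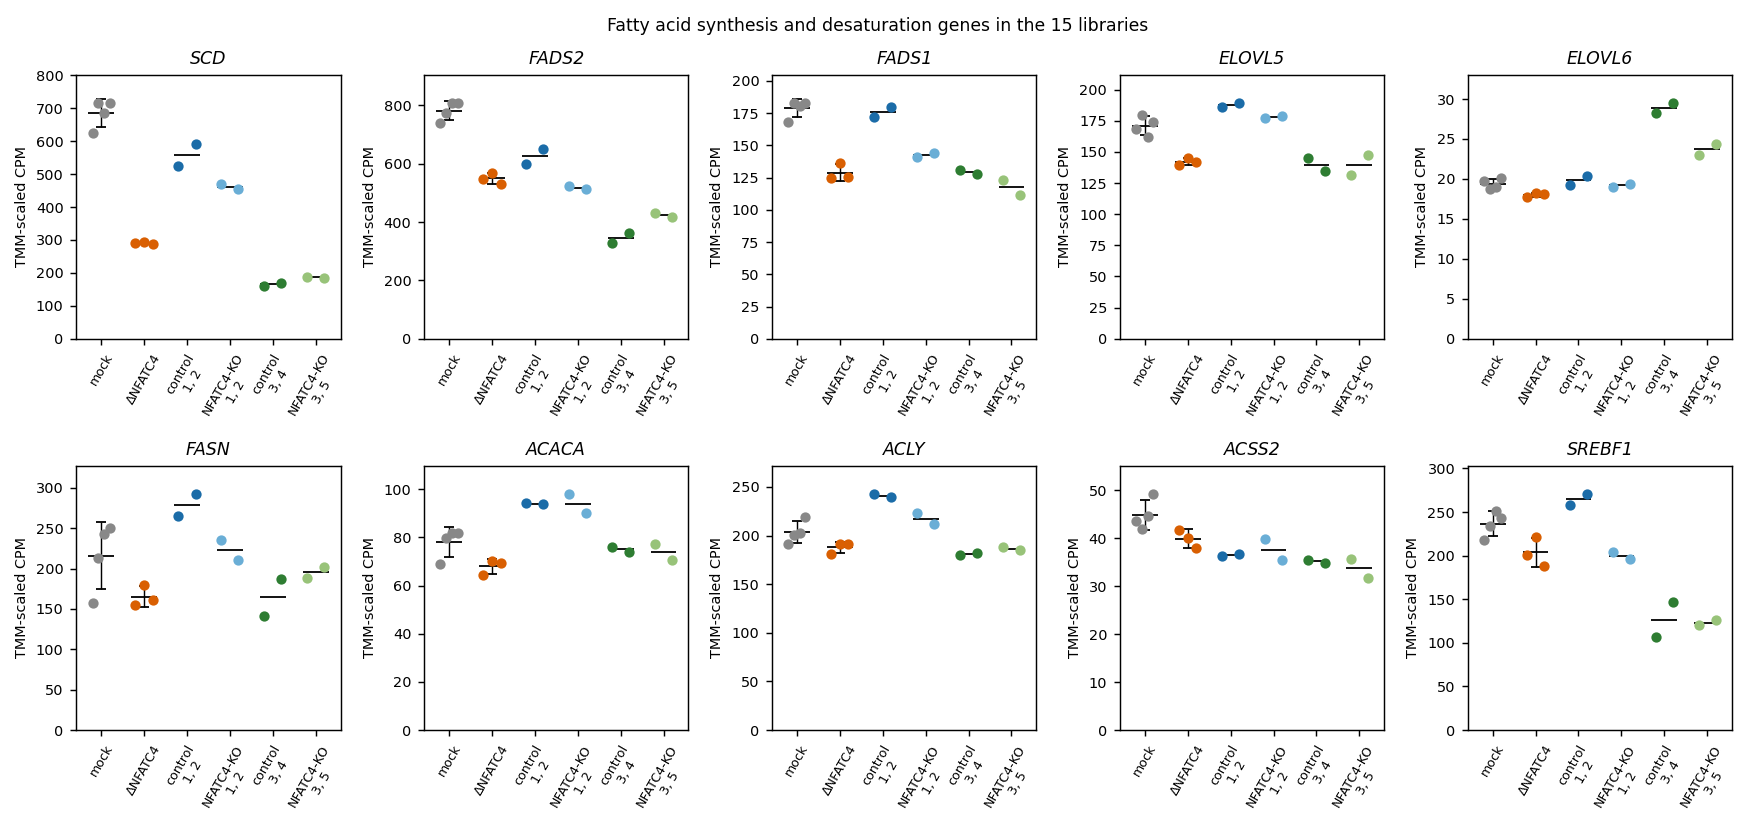
TMM-scaled CPM (vertical axes, from 0) of the 10 members in the 15 libraries, 1 point a library, with a bar at the mean and, for mock and ΔNFATC4, error bars of 1 SD. SCD in the 3 ΔNFATC4 libraries sits between 289 and 293 CPM under mock at 624 to 716 CPM, and the second library set of control 3, 4 and NFATC4-KO 3, 5 sits lower still, at 160 to 188 CPM.

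These calls rest on a spread taken from ΔNFATC4 and mock alone. With 1 mean per label over all 15 libraries, where the split within control and NFATC4-KO enters the spread, FADS1 was the only member still called (adjusted p = 0.0398), and SCD had the same log2 fold change of −1.23 but a SE of 0.48 (adjusted p = 0.224). Calls over all genes fell in that fit as well, from 860 to 204 lower and from 1084 to 326 higher. With the library sets as separate means in a fit of all 15 libraries, SCD, FADS2, FADS1 and ELOVL5 were called, ACACA as well (adjusted p = 0.0358), and SREBF1 was not (adjusted p = 0.0626). Summed immune cell markers were 1.62 to 2.06 CPM in ΔNFATC4 and 0.80 to 0.95 CPM in mock. Averaged over all 15 libraries, 0 of the 5 immune genes were above 1 CPM. CD68, 1 of them, was at 1.30, 1.34 and 1.63 CPM in ΔNFATC4 and at 0.26 to 0.54 CPM in mock. Summed fibroblast markers were 10.2 to 12.1 CPM in ΔNFATC4 and 10.1 to 13.6 CPM in mock. By edgeR, 1 of 2 immune and 1 of 3 fibroblast genes tested were called higher in ΔNFATC4, and 0 lower. None of these genes was at 0 in every library, and their part in the result was not tested. The summed adrenocortical markers overlapped (2176 to 2478 and 2139 to 2349 CPM), although 3 of the 10 were called higher in ΔNFATC4 and 1 lower by edgeR, and their part in the result was not tested either.

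Lists of related genes were counted the same way, to be read beside the 6.10% of all genes tested called lower and 7.69% called higher. Of 18 tested among the other synthesis, elongation and desaturation enzymes, 5 were lower and 0 higher, with a median of −0.04. ELOVL3, an elongase of saturated chains, was at 11.0 ± 0.94 CPM in mock (SD, n = 4) and 7.53 ± 0.57 CPM in ΔNFATC4 (SD, n = 3), a log2 fold change of −0.55 (edgeR adjusted p = 0.00137). SCD5, the second human stearoyl-CoA desaturase, fell from 69.7 ± 2.69 to 51.6 ± 0.84 CPM (log2 fold change −0.43, edgeR adjusted p = 7.34e-05), a smaller change than that of SCD. ELOVL7 and ELOVL4, elongases of long and very long chains, fell by 0.29 and 0.27 (edgeR adjusted p = 0.0155 and 0.028).

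In the supply of citrate, NADPH and cofactors, 3 of 10 genes were lower and 1 higher (median −0.08). SLC25A1, the mitochondrial citrate carrier, fell from 108 ± 9.30 to 77.6 ± 5.42 CPM (log2 −0.47, edgeR adjusted p = 0.000161), and MID1IP1, which promotes assembly of acetyl-CoA carboxylase, fell by 0.39 on the log2 scale (edgeR adjusted p = 0.000232). IDH1, a cytosolic source of NADPH, fell by 0.22. Among 8 fatty acid activation genes, 1 was called higher (SLC27A3, by 0.64) and 0 lower (median −0.11), beside 7.69% and 6.10% of all genes tested.

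Of 15 regulators around SREBP, LXR and ChREBP, 3 were lower and 1 higher (median −0.06). INSIG1, which holds the SREBP complex in the endoplasmic reticulum and is itself an SREBP target, fell from 103 ± 6.56 to 58.2 ± 1.04 CPM (log2 −0.83, edgeR adjusted p = 2.41e-08), and INSIG2 fell by 0.43. SREBF2, the gene of SREBP-2, fell by 0.39 (edgeR adjusted p = 0.000188), while SCAP, the escort of SREBP, was at −0.06 (adjusted p = 0.588). NR1H3, which encodes LXR alpha, rose from 2.71 to 3.90 CPM (log2 0.52, edgeR adjusted p = 0.0246). The cholesterol synthesis and uptake list had the most calls, with 17 of 22 genes tested lower and 0 higher (median −0.38). Its most changed members were FDFT1 (−0.63), MSMO1 (−0.60), LSS (−0.54) and HSD17B7 (−0.50, which has a pseudogene copy, so that its counts are uncertain). With 1 mean per label over all 15 libraries, 4 of the 17 calls of the cholesterol list and 1 of the 5 of the other fatty acid enzymes were left in number. Over all genes, 204 of the 860 lower calls were left in number.

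Further along, 3 of 18 triglyceride and phospholipid genes were lower and 0 higher (median −0.08), namely LPCAT1 (−0.29) and MBOAT7 (−0.28), which reacylate lysophospholipids, and PCYT2 (−0.26), of phosphatidylethanolamine synthesis, while GPAM, the first acyltransferase, was at −0.06 (adjusted p = 0.717). Of 24 fatty acid oxidation genes, 3 were higher and 2 lower, beside 7.69% and 6.10% of all genes tested. Theirs was the only one of these 7 lists with a positive median (0.05, against −0.00269 for all genes). CPT1A, which admits fatty acids to the mitochondrion, rose by 0.21, ACADM by 0.23 and ETFB by 0.24, and ECI1 fell by 0.28.

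**Figure D2:**
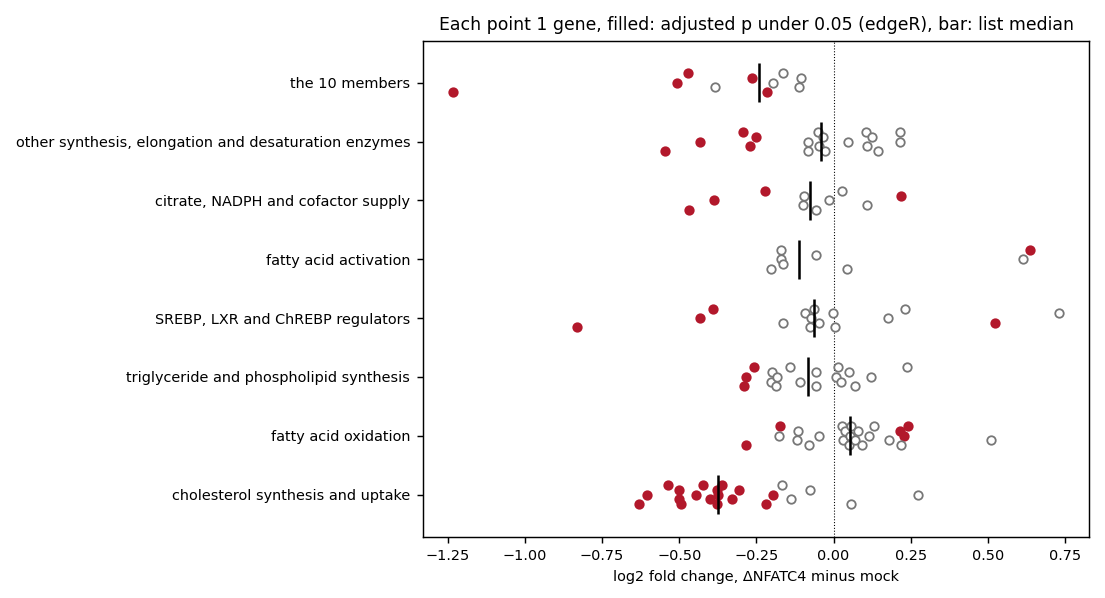
Log2 fold change of ΔNFATC4 minus mock (horizontal axis) for every tested gene of the members and of 7 related lists, 1 point a gene, filled where the edgeR adjusted p is under 0.05, with a bar at each list's median. The member at −1.23 is SCD, and the cholesterol list holds 17 filled points, all left of 0.

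For the knockout label, 0 of 13868 genes were called between all 4 NFATC4-KO and all 4 control libraries by edgeR's quasi-likelihood test, with 657 higher and 600 lower at an unadjusted p under 0.05. DESeq2 called 70 higher and 97 lower and limma-voom with sample quality weights 13 and 13. None of the 10 members was called by edgeR, and 0 had an unadjusted p under 0.05. SCD was at 524, 590, 160 and 170 CPM in control 1 to 4 and at 469, 454, 188 and 185 CPM in NFATC4-KO 1, 2, 3 and 5, so each label held a high and a low pair (log2 difference −0.16, SE 0.53, adjusted p = 0.984). All 10 differences were negative, with a median of −0.08 beside −0.00654 for all genes, and the largest were SREBF1 (−0.28, SE 0.32) and FADS1 (−0.23, SE 0.133). Same-numbered libraries of these labels deviated together from their group means, but so did differently numbered libraries of a set (correlation 0.853 for NFATC4-KO 1 and control 2). With the replicate number as a block 95 genes were lower and 44 higher, with 0 members among them. That block gives no weight to control replicate 4 and NFATC4-KO replicate 5, whose numbers have no partner.

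With the library set as a term, FADS1 was lower in NFATC4-KO (log2 difference −0.23, SE 0.054, edgeR adjusted p = 0.0134) and no other member was called, against 6.04% of all genes called lower and 4.39% higher. FADS1 was at 172, 180, 131 and 127 CPM in control 1 to 4 and at 141, 144, 123 and 112 CPM in NFATC4-KO 1, 2, 3 and 5, so within each set both NFATC4-KO libraries lay below both control libraries. In the same fit 6 of 10 adrenocortical markers were lower in NFATC4-KO, and their part in the value of FADS1 was not tested.

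Within the first set alone, 6 of 10 members were lower in NFATC4-KO 1 and 2 than in control 1 and 2, and 8.70% of genes were called lower there. SREBF1 went from 259 and 271 CPM to 204 and 196 CPM (log2 −0.40, SE 0.048, edgeR adjusted p = 2.57e-05). FASN went from 265 and 292 to 235 and 211 CPM (−0.32, adjusted p = 0.000867) and FADS1 was at −0.30 (adjusted p = 0.000437). SCD (−0.27, adjusted p = 0.00177), FADS2 (−0.27, adjusted p = 0.000943) and ACLY (−0.15, adjusted p = 0.0411) were the other calls by edgeR. ACACA (0.00071, SE 0.054), ACSS2 (0.04, SE 0.069), ELOVL5 (−0.07, SE 0.047) and ELOVL6 (−0.04, SE 0.080) were not called. The summed adrenocortical markers in these libraries were 2120 and 2268 CPM in control and 1570 and 1649 CPM in NFATC4-KO, and their part in the members' values was not tested.

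Within the second set alone the pattern was another one. FADS2 was higher in NFATC4-KO, at 431 and 417 CPM against 327 and 364 CPM in control (log2 0.30, SE 0.072, edgeR adjusted p = 0.00313), and 0 members were lower, with 5.11% of genes called higher and 4.40% lower. FASN was at 188 and 202 CPM in NFATC4-KO and at 141 and 188 CPM in control (0.25, SE 0.088, adjusted p = 0.0576), and SCD was at 0.18 (SE 0.079, adjusted p = 0.136). ELOVL6 was at 23.1 and 24.4 CPM in NFATC4-KO and at 28.2 and 29.5 CPM in control (−0.28, SE 0.114, adjusted p = 0.111). The difference of the label effect between sets, second minus first, passed the test for FADS2 (0.56, SE 0.087, edgeR adjusted p = 0.00498) and SCD (0.44, SE 0.089, edgeR adjusted p = 0.0342), against 0.310% of all genes, and for the other 8 members it did not. FASN was the nearest of these (0.57, SE 0.126, adjusted p = 0.0502). Within the second set 3 of 10 adrenocortical markers were lower in NFATC4-KO and 0 higher, with sums of 1113 and 1184 CPM against 1196 and 1334 CPM in control, and their part in the members' values was not tested.

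**Figure D3:**
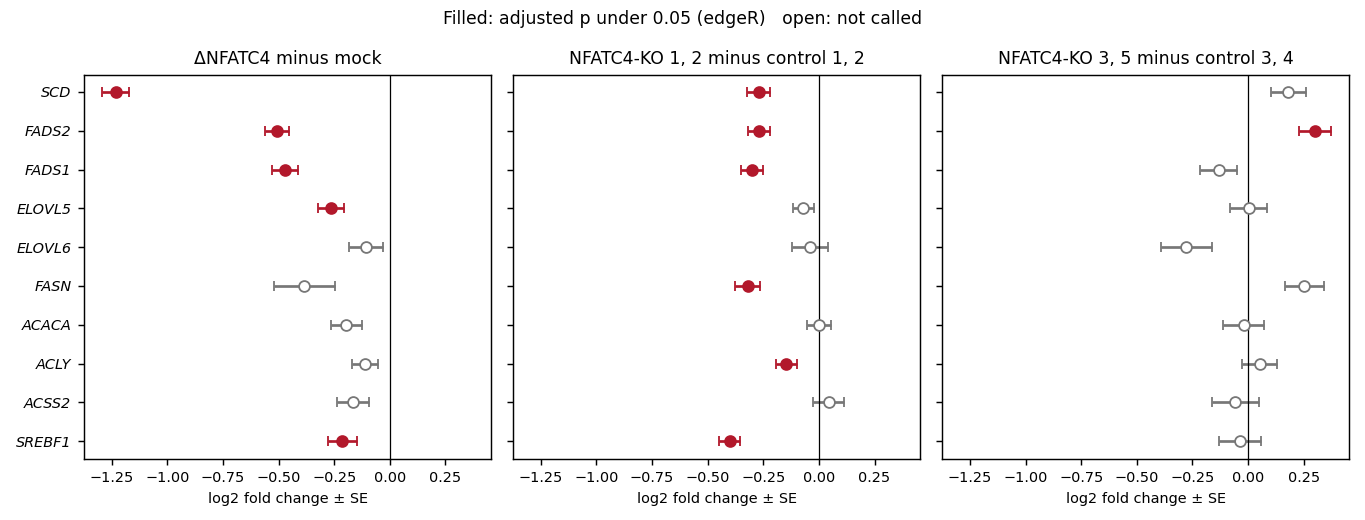
Log2 fold change (horizontal axis) with its SE for the 10 members in ΔNFATC4 against mock and in NFATC4-KO against control within each library set, filled where the edgeR adjusted p is under 0.05. ΔNFATC4 holds 5 filled points, all left of 0, the first set holds 6, all left of 0, and the second set holds FADS2 alone, at 0.30.

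Compared between the library sets, whatever the label, most members were higher in the first set. In 8 of the 10 every library of the first set was above every library of the second, which held for 20.0% of all genes, and ELOVL6 alone was lower without overlap (17.6% of all genes). The median log2 ratio of first over second was 0.38 for the members and 0.00104 for all genes, and no test was made since the sets were drawn from expression. SCD was at 454 to 590 CPM in the first set and at 160 to 188 CPM in the second, a ratio of means of 2.90, and it was the only member at or over 2-fold, as were 4.41% of all genes. Within control alone the ratio was 3.38 and within NFATC4-KO alone 2.48.

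SREBF1, the regulator, was at 196 to 271 CPM in the first set and at 106 to 147 CPM in the second (1.86-fold), followed by FADS2 (1.49-fold, 513 to 651 against 327 to 431 CPM) and FASN (1.39-fold, 211 to 292 against 141 to 202 CPM). The ratio of FADS2 was 1.81 within control and 1.22 within NFATC4-KO, and that of FASN was 1.69 and 1.14 (the interaction above passed for FADS2 and not for FASN). ELOVL5 (1.31-fold), FADS1 (1.29-fold), ACACA (1.26-fold) and ACLY (1.25-fold) differed less but without overlap. ACSS2 was at 35.5 to 39.7 CPM in the first set and at 31.7 to 35.7 CPM in the second, and its sets overlapped. ELOVL6 ran the other way, at 19.0 to 20.4 CPM in the first set and at 23.1 to 29.5 CPM in the second, a ratio of 0.742.

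Over all genes tested, 20.0% were higher in the first set without overlap and 17.6% lower (median log2 ratio 0.00104). Among the other lists, 12 of 22 cholesterol genes were higher without overlap and 1 was lower (median 0.41). Of 14 SREBP, LXR and ChREBP regulators, 7 were higher and 1 lower (median 0.20). INSIG1 was 3.30-fold higher in the first set, at 57.9 to 67.8 against 14.0 to 22.4 CPM, and SREBF2 1.89-fold higher. Of 23 fatty acid oxidation genes, 1 was higher and 9 lower (median −0.08), and of 18 triglyceride and phospholipid genes 3 were higher and 6 lower (median −0.04). NFATC4 itself was 1.92-fold higher in the first set. Summed adrenocortical markers were 1570 to 2268 CPM in the first set and 1113 to 1334 CPM in the second, and summed fibroblast markers 11.7 to 12.7 and 4.48 to 6.86 CPM. Their part in the members' values was not tested.

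**Figure D4:**
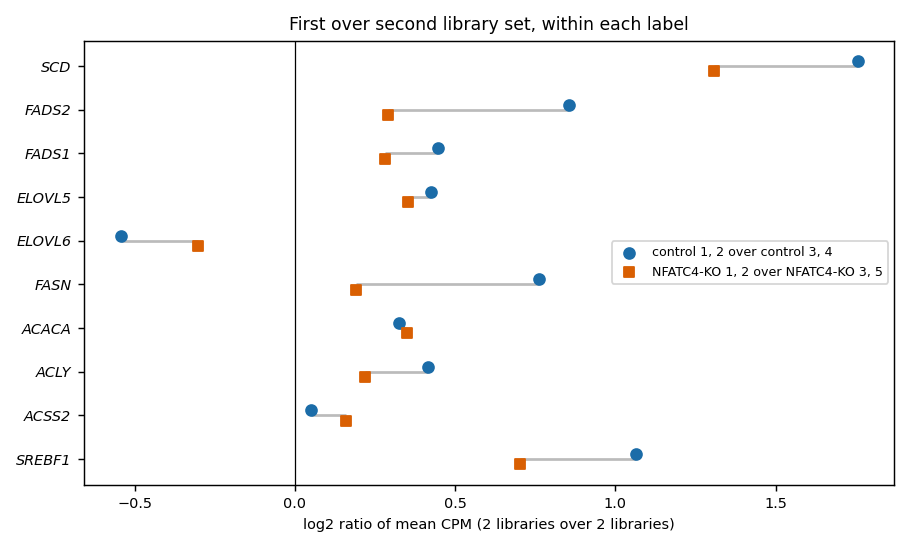
Log2 ratio of mean CPM in the first over the second library set (horizontal axis) for each member, within control (circles) and within NFATC4-KO (squares), each from 2 libraries over 2. ELOVL6 is the only member left of 0 under both labels, and SCD is the furthest right, at 1.76 and 1.31.

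Set in order over all 6 kinds of library, SCD ran from mock (685 CPM) through control 1 and 2 (557), NFATC4-KO 1 and 2 (461), ΔNFATC4 (291) and NFATC4-KO 3 and 5 (186) to control 3 and 4 (165), with no overlap between any neighbours. FADS2 had the same ends, with ΔNFATC4 (550 CPM) between control 1 and 2 (625) and NFATC4-KO 1 and 2 (518), also without overlap. For FADS1, mock (179 CPM) overlapped control 1 and 2 (176), and control 3 and 4 (129) overlapped ΔNFATC4 (129). ELOVL5 put ΔNFATC4 (142 CPM) beside control 3 and 4 (140) and NFATC4-KO 3 and 5 (139), all overlapping. For FASN and ACLY, control 1 and 2 stood highest, at 279 and 241 CPM, and control 3 and 4 lowest, at 164 and 181 CPM. For FASN this lowest pair overlapped ΔNFATC4 (165 CPM), and for ACLY it did not overlap NFATC4-KO 3 and 5 (187), the next above it. SREBF1 was highest in control 1 and 2 (265 CPM, no overlap with mock at 237), and its lowest pair, control 3 and 4 (126) and NFATC4-KO 3 and 5 (123), overlapped. ACACA was highest in NFATC4-KO 1 and 2 and control 1 and 2 (both 94.0 CPM) and lowest in ΔNFATC4 (68.0), ACSS2 was highest in mock (44.8), and ELOVL6 was highest in control 3 and 4 (28.9) and lowest in ΔNFATC4 (18.0). The sum of the 10 members was 2399 to 2744 CPM in mock, 1755 to 1864 in ΔNFATC4, 2053 to 2563 in the first set and 1330 to 1506 in the second.

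Per kilobase of annotated exon, SCD had the highest level of the 10 in mock, at 131 ± 8.32 CPM per kb (SD, n = 4), and ELOVL6 the lowest, at 2.67 ± 0.089. FADS2 (74.2), ELOVL5 (44.9) and ACLY (39.0 CPM per kb) followed SCD. The length used joins the exons of all annotated transcripts of a gene, 5245 bases for SCD and 10553 for FADS2, whether or not these cells use them. The order depends on it, since in CPM alone FADS2 (783) was above SCD (685) in mock. In ΔNFATC4, SCD (55.6) and FADS2 (52.1 CPM per kb) stood close together, and in the second library set SCD ranked 4 of 10. Its share of the members' summed CPM was 21.9% to 23.0% in the first set and 11.7% to 12.5% in the second.

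Across the 15 libraries, SCD on the log2 CPM scale ran most closely with FADS2 (Pearson r = 0.93), FADS1 (0.91) and SREBF1 (0.89) among the members, and ACLY with FASN (0.87) and ACACA (0.87). ELOVL6 ran against FADS2 (−0.75) and SCD (−0.68). Among 13064 other genes with at least 1 CPM, those most like SCD were QPRT (0.98), HMGCS1 (0.96), SREBF2 (0.96), FGFR1 (0.96) and SLC2A1 (0.96), and among those most like the mean of the 10 members were TGFBR3 (0.96), CLSTN1 (0.96), SAMHD1 (0.95) and ROR2 (0.95). These points share groups and library sets, so the values describe the 15 libraries and carry no test.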

How the data were processed

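RNA-Seq was made by the authors from stranded mRNA libraries. Adaptors were removed with fastp, reads were aligned with STAR to GRCh38.p13 (GENCODE) and counted per gene with featureCounts, whose versions and strand setting are not given in the sources used here. Each deposited file holds the raw counts of 1 library for 21493 genes (21400 with a symbol). Depth was 18.8 to 28.2 M counts, and a count of 0 allows 3 counts, at most 0.160 CPM, for counting error only.

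From these counts, TMM factors and CPM were computed over all 15 libraries (log2 CPM with a prior count of 2). Genes were kept by filterByExpr and tested with edgeR 4.0.16 (R 4.3.3) by robust quasi-likelihood fits of only the 2 groups compared, since libraries of the control and NFATC4-KO labels fall into sets that widen a shared spread. Adjustment was by Benjamini-Hochberg across every gene of the fit. Each SE is |log2 fold change| over √F. Alternatives were DESeq2 size factors or total counts in edgeR, no filter, a filter of 50 counts in 3 libraries, DESeq2 1.42.0, limma-voom with sample quality weights (limma 3.58.1), no robust shrinkage, fits of all 15 libraries, the replicate number as a block, the library set, and leaving out 1 library at a time. The interaction of label and set was added after the data were seen. The fits were tested on simulated counts. For NFATC4-KO against control these held no split into library sets, so they do not show how that fit performs on the real libraries.

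The members, lists and tests were chosen with earlier results of these data known. Named beyond the members are up to 4 called genes per list with the largest change and a mean of at least 1 CPM, SREBP pathway genes fixed by name, and the 5 genes most like the members or SCD. The values of some genes that this rule names are not reported here. Same-numbered NFATC4-KO and control libraries deviated together (correlations 0.873, 0.844 and 0.769 for numbers 1, 2 and 3), and so did differently numbered libraries of a set (0.853 for NFATC4-KO 1 and control 2). Exons and positions come from GENCODE on GRCh38, promoter windows from RefSeq.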

Additional observations from a re-analysis of the deposited data

Results flagged for a closer look

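Dixon's test for a library that stands apart was made for each of the 10 members in mock, in control and in NFATC4-KO. Chance alone passes it in about 1 group of 20, so some passes among that many groups can be chance. In mock, replicate 1 stood apart from the other 3 libraries by this test for ACACA (68.8 CPM, the others 79.7 to 81.7) and for FADS1 (168 CPM, the others 181 to 183). It is also the library with the highest mitochondrial share (13.1%). The label effect, NFATC4-KO minus control, differed between the second and the first library set by 0.56 on the log2 scale for FADS2 and by 0.44 for SCD, both past the test of the interaction (edgeR adjusted p = 0.00498 and 0.0342). For FASN (0.57, adjusted p = 0.0502) and ACLY (0.19, adjusted p = 0.219), both NFATC4-KO libraries lay below both controls in the first set and above them in the second, but the interaction did not pass the test.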

How the results depend on the processing

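For ΔNFATC4 against mock, 5 members lower became 1 with 1 mean per label over all 15 libraries and 4 to 7 with 1 library left out, and 0 were higher in every alternative. Genes lower (860) came to 1331 with limma-voom and sample quality weights (here and below), 204 with 1 mean per label over all 15 libraries and 458 to 1219 with 1 library left out (485, 458 and 493 without ΔNFATC4 replicates 1, 2 and 3), and genes higher (1084) to 326 and 644 to 1341 (644 without ΔNFATC4 replicate 2). The directions of the 10 members held in all 17 alternatives. With total counts, 649 genes were lower and 1268 higher, 33.9% of calls lower in place of 44.2%. FASN was also called with limma-voom, without robust shrinkage and with the replicate block (−0.29), where 6 members were lower. Pairing by number was not seen between these groups (correlations of deviations 0.183, −0.159 and 0.0488).

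For NFATC4-KO against control, 0 members lower became 2 with 6 means over 15 libraries (FADS1 and SREBF1), 1 with the set as a term and 6 in the first set, and 0 higher became 1 in the second set. Genes lower and higher came to 97 and 70 (DESeq2), 13 and 13 (limma-voom), 31 and 31 (1 mean per label over all 15 libraries), 918 and 819 (6 means), 95 and 44 (replicate block), 837 and 609 (set as a term), 1214 and 1100 (first set) and 605 and 703 (second set), and 0 to 0 and 0 to 1 with 1 library left out (1 without NFATC4-KO replicate 3). Some members changed sign, and for FADS2 and SCD the label effect differed between sets (edgeR interaction, adjusted p = 0.00498 and 0.0342). In the second set those that changed sign were ACLY (0.052), FASN (0.25), ELOVL5 (0.0020), SCD (0.18) and FADS2 (0.30). ACSS2 and ACACA did so with total counts (0.0089 and 0.0062), with the replicate block (0.029 and 0.0048) and in the first set (0.043 and 0.00071), FADS2 with 6 means (0.012) and the set as a term (0.0061), and ELOVL6 with limma-voom (0.043). With 1 library left out the ranges were −0.13 to 0.0061 (ACLY), −0.066 to 0.041 (ACSS2), −0.096 to 0.061 (ACACA), −0.25 to 0.073 (FASN), −0.13 to 0.034 (ELOVL5), −0.40 to 0.18 (SCD) and −0.19 to 0.13 (FADS2). The causes were not tested. Between library sets, no member changed direction within either label or with 1 library left out. Each label holds 2 libraries a set, which limits the fits within sets.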
